A study of Mus musculus with 6 samples.

Results

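The p53 target genes described here are 30 genes of the mouse that p53 is known to switch on. They were chosen by name, with earlier results of these data known, and each gene is read by its brightest probe. All 30 had a probe, among 16535 genes that the arrays name through a RefSeq transcript, and 46 probes in all matched them. RNA came from mouse embryonic fibroblasts on 6 one-colour Agilent arrays, 3 labelled Rap1 knock-out and 3 labelled wild type. Both groups had been infected with SV40 large T antigen, a viral protein that lets fibroblasts grow without limit, and with Cre recombinase, and both were grown in puromycin. Cre removes the floxed exon 3 of the Rap1 gene, Terf2ip, which holds the end of its transcript. Whether the wild-type cells carried a floxed allele is not stated, and no label gives the age or strain of the embryos. No label ties a replicate to an embryo or a culture of its own, and the p-values below cover the spread between these arrays, which may be technical.

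The transcription factor p53 responds to DNA damage and other stress by switching on genes that stop the cell cycle, repair DNA, or kill the cell. Its own inhibitor Mdm2 is among them, which closes a feedback loop. Large T antigen binds p53 and keeps it from activating its targets, and it also binds the retinoblastoma family of pocket proteins, which frees the E2F factors. Rap1 sits on telomeres within the shelterin complex, which keeps chromosome ends from setting off the damage signals that lead to p53. Cells without large T antigen were not measured, so the levels below are those of cells that carry it.

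DNA sequences are shown to place a regulatory element recognised by p53 beside the values. The genes were chosen by name and not by this element. p53 binds as a tetramer to pairs of a 10-base element, called the p53 decamer here, and the decamer reads the same way on both strands. RefSeq promoter windows (GRCm38.p6, 250 bases before to 50 bases after a start) were given for 22 of the 30 genes, and not for Pmaip1, Trp53inp1, Tnfrsf10b, Perp, Zmat3, Xpc, Ddb2 and Rrm2b. A decamer was found in 11 of their 31 windows (35.5%), belonging to 10 genes, against 8.36% of all 32851 windows of this length. The windows of the p53 targets were also richer in G and C, with a median of 62.7% against 52.7%. Cdkn1a alone among the 22 genes had a pair of decamers no more than 13 bases apart, which 0.0731% of all windows held. The decamers of the 6 genes whose values are given array by array below and that hold one follow 5′ to 3′ with the decamer in capitals:
Cdkn1a, chr17:29090901-29090920, plus strand: ggtggGGACTAGCTTtctgg
Cdkn1a, chr17:29090923-29090942, plus strand: ttcagGAACATGTCTtgaca
Mdm2, chr10:117710930-117710949, minus strand: gatagGAACTTGCCTagcga
Gadd45a, chr6:67037433-67037452, minus strand: gctgaGGGCTAGCCCcatat
Ckap2, chr8:22186008-22186027, minus strand: tctgaAGACATGTCCtgact
Ei24, chr9:36797330-36797349, minus strand: ggcccGGGCATGCCCagtgt
Polk, chr13:96519404-96519423, minus strand: agcttGAACTAGCCTcaaac
A decamer in such a window is a match of letters and not a measured binding site. Known p53 sites can lie outside these windows, so a window without one says only that the letters are not there.

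Each signal is a log2 value from which the 75th percentile of its array was subtracted, and a difference of 1 on this scale is 2-fold. Terf2ip read -7.91, -9.08 and -8.11 in knockout cells, none of them well above background, against -1.75, -1.65 and -1.82 in wild-type cells. It was at least 38.3-fold lower in knockout cells (limma adjusted p = 0.00792), which is the direction of the labels; whether its probe lies in exon 3 was not determined. Between 61.6% and 67.0% of 41174 probes were well above background on an array. Of 14 fibroblast markers, 13 were well above background on all knockout arrays and 14 on all wild-type arrays, while Ptprc of the blood cell markers, Pecam1 and Cdh5 of the endothelial markers and Myod1 of the muscle markers were above it on none. Other members of those lists, such as Coro1a, Kdr and Tnnt2, were above it on all 6 arrays. Of 10 epithelial markers, 7 were above it on all knockout arrays and 7 on all wild-type arrays, with Cldn4 and Esrp1 on none, and their summed log2 signal ran from 2.27 to 3.76 on knockout arrays and from 1.90 to 2.63 on wild-type arrays. The summed log2 signal of the fibroblast markers ran from 8.41 to 9.21 on knockout arrays and from 9.28 to 9.41 on wild-type arrays, and the median log2 difference over these 14 markers was -0.86. That median was -0.47 without knockout array 1, -0.39 without knockout array 3, -0.49 without wild-type array 1 and -0.21 on slide 2 alone. Adipocyte markers, 4 of 8 above background on all knockout arrays and 3 on all wild-type arrays with Adipoq and Lep on none, summed to 0.49 to 1.86 on knockout arrays and 3.29 to 3.94 on wild-type arrays. The part of these markers in the results below was not tested, and fewer cells of a type cannot be told apart from less RNA per cell. Wild-type arrays 2 and 3 stood apart by being nearly alike. Over repeated spots of 156 probes their log2 difference had an SD of 0.147, against 0.0949 to 0.138 between spots within an array and 0.929 to 1.48 between other pairs of arrays. Results are therefore also given with these 2 arrays averaged and counted once. The arrays lay on 2 slides, with knockout 1 and wild type 1 on slide 1 and the other 4 arrays on slide 2.

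Knockout cells were compared with wild-type cells to ask whether loss of Rap1 moved the p53 targets in cells where large T antigen was present. Of the 30 genes, 29 were well above background on all 6 arrays and were tested, none of them let in through 1 group alone. Eda2r, a receptor of the tumour necrosis factor family, was not well above background on any array and was not tested. None of the 29 rose or fell at a limma adjusted p under 0.05 (0 higher, 0 lower), against 0.0102% of all 19652 features, which are 2 features. With wild-type arrays 2 and 3 counted once the count was again 0 of 29.

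At an unadjusted p under 0.05 there was 1 of 29, Gadd45a (3.45%), against 10.3% of all features (5.61% higher and 4.66% lower in knockout cells), and none with the 2 wild-type arrays counted once. The log2 differences ran from -1.72 for Gdf15 to 1.52 for Fas, with 14 genes above 0 and 15 below, while 55.4% of all features lay above 0. Their median was -0.09, against 0.07 over all features. Over the 11874 features with a gene symbol the median was 0.14, with 7234 of them above 0. With arrays scaled to their medians the median of the targets was 0.02, against 0.17 over all features. The difference was at least 2-fold for 4 of 29 (13.8%), Fas and Gadd45b higher and Gdf15 and Gadd45a lower in knockout cells, against 10.2% of all features (3.89% higher and 6.26% lower). In 3 of 29 genes (10.3%) the groups did not overlap, against 17.2% of all features. These 3, Gadd45a, Pmaip1 and Plk3, were lower on every knockout array, and the background for that direction is 5.88%. The count of 3 depended on single arrays and on the scaling: it was 1 with arrays scaled to their medians, 6 without knockout array 2, 11 without knockout array 3 and 13 without wild-type array 1. In these 4 fits the groups did not overlap for 18%, 28.9%, 42.2% and 45.6% of all features.

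**Figure D1:**
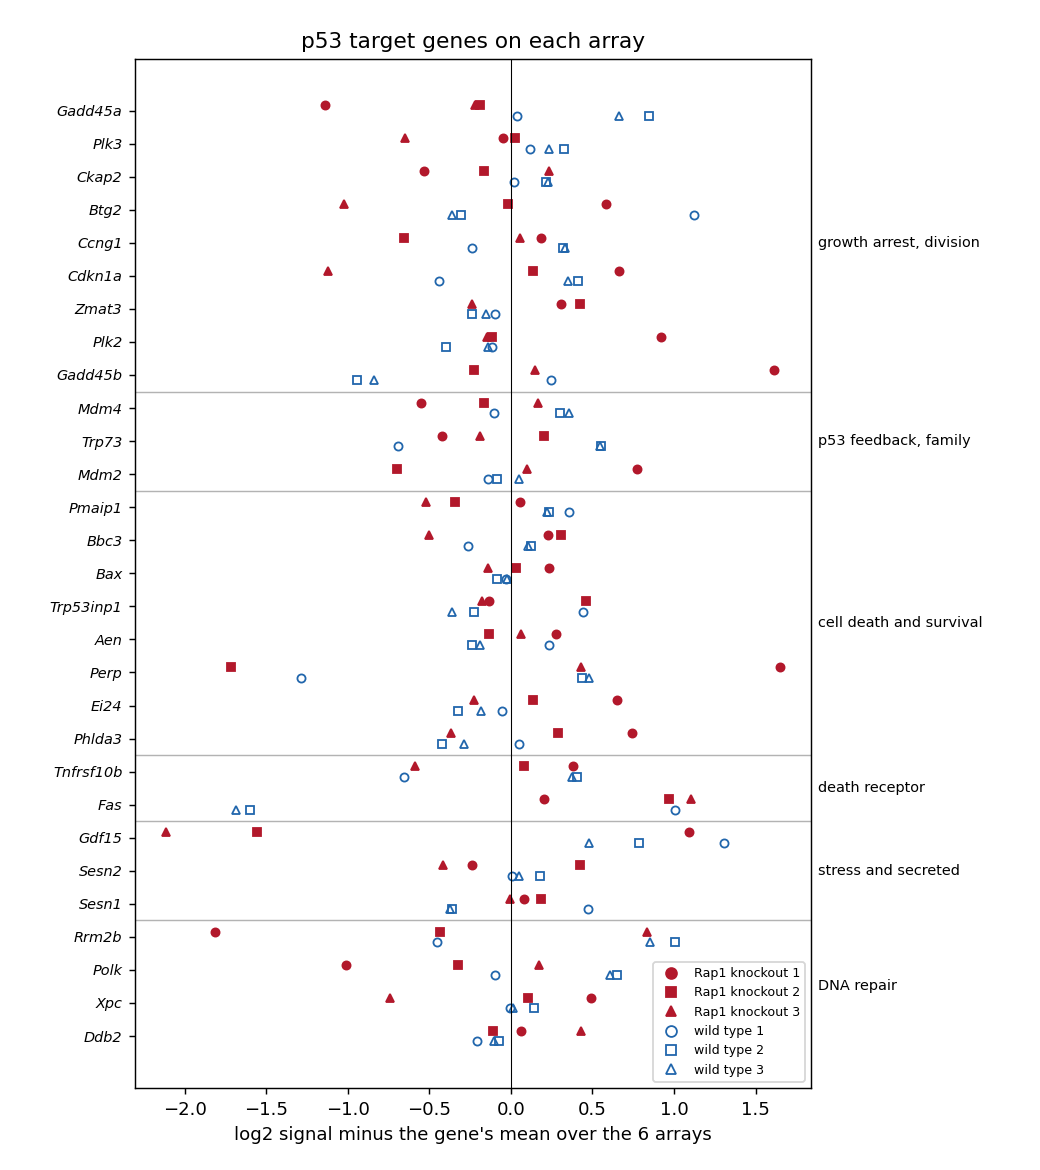
Log2 signal of the 29 tested p53 target genes on each array, centred on each gene's mean over the 6 arrays and grouped by role; filled red symbols are Rap1 knockout arrays and open blue symbols are wild-type arrays. Red and blue symbols overlap in 26 rows and are apart for Gadd45a, Plk3 and Pmaip1, and the blue squares and triangles of wild-type arrays 2 and 3 differ with an SD of 0.116.

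Genes that slow or stop the cell cycle, or act in division, formed the largest group, with 9 tested members of which 0 passed the test in either direction. Cdkn1a encodes p21, the inhibitor of cyclin-dependent kinases through which p53 arrests the cycle. It read 1.21, 0.69 and -0.57 on the knockout arrays, against 0.11, 0.96 and 0.90 on the wild-type arrays. Knockout array 1 was the highest of all 6 and knockout array 3 the lowest, so the wild-type values lay inside the knockout range. The log2 difference was -0.21 (SE 0.50, limma adjusted p = 0.861), with a 95% interval from -1.41 to 0.98. It was 1.11 on slide 1 and -0.87 on slide 2, and -0.07 (SE 0.60) with the 2 wild-type arrays counted once.

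Gadd45a, a stress sensor that slows the cycle and takes part in DNA repair, had the smallest p of the group. Its signal was 1.18, 2.13 and 2.10 on the knockout arrays, against 2.35, 3.16 and 2.98 on the wild-type arrays. Every knockout array lay below every wild-type array, with knockout array 1 the lowest and knockout arrays 2 and 3 next to wild type 1. The log2 difference was -1.03 (SE 0.36, unadjusted p = 0.0263, limma adjusted p = 0.475), with -1.18 on slide 1 and -0.96 on slide 2. Counting the 2 wild-type arrays once gave -0.91 (SE 0.45, limma adjusted p = 0.936). Its difference stayed below 0 in each of 18 alternatives, between -1.27 and -0.72, with limma adjusted p-values from 0.0989 to 0.945.

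Gadd45b, its close relative, lay on the other side of 0. It read 4.01, 2.18 and 2.55 on the knockout arrays, against 2.64, 1.46 and 1.56 on the wild-type arrays. Knockout array 1 was highest, and knockout arrays 2 and 3 lay between wild type 1 and the other wild-type arrays. The difference was 1.02 (SE 0.56, limma adjusted p = 0.512), with 1.37 on slide 1 and 0.85 on slide 2. A second probe of Gadd45b gave 0.91. Within each slide, then, the Gadd45 pair stood on opposite sides of 0, with Gadd45a lower and Gadd45b higher in the knockout.

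Plk3, a stress-responsive polo-like kinase, read 0.70, 0.77 and 0.10 on the knockout arrays and 0.86, 1.07 and 0.98 on the wild-type arrays. Its groups were apart by a small gap and knockout array 3 was the lowest, with a difference of -0.45 (SE 0.26, limma adjusted p = 0.521). Plk2, another kinase of this family, differed by 0.43 (SE 0.34), or 1.04 within slide 1 and 0.13 within slide 2. Ckap2, a microtubule-associated protein of the mitotic spindle, read 0.67, 1.04 and 1.44 on the knockout arrays and 1.22, 1.42 and 1.43 on the wild-type arrays. Knockout array 3 matched the wild type there and the other knockout arrays lay below it, for a difference of -0.31 (SE 0.26, limma adjusted p = 0.621). The second probe of Ckap2 gave -0.48. Ccng1, a cyclin that works with the phosphatase PP2A, differed by -0.27 (SE 0.32), and its second probe by 0.32, so the direction for Ccng1 depended on the probe. Btg2, an antiproliferative cofactor of mRNA decay, differed by -0.30 (SE 0.56). Zmat3, an RNA-binding zinc finger protein, differed by 0.33 (SE 0.25), with a 95% interval of -0.27 to 0.93.

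Among the genes that restrain p53 or belong to its family, 0 of 3 passed. Mdm2, the ubiquitin ligase that destroys p53, read 1.56, 0.09 and 0.89 on the knockout arrays, against 0.65, 0.70 and 0.84 on the wild-type arrays. The wild-type arrays were close together, while the knockout arrays spanned them on both sides, with array 1 highest and array 2 lowest. The difference was 0.12 (SE 0.39, limma adjusted p = 0.906), and its 95% interval ran from -0.80 to 1.04. On slide 1 it was 0.92 and on slide 2 it was -0.28. The other probe of Mdm2 gave 0.08. Mdm4, the partner of Mdm2 that masks the activation domain of p53, read -3.42, -3.04 and -2.70 on the knockout arrays and -2.98, -2.57 and -2.52 on the wild-type arrays. Only knockout array 3 reached the wild-type range. Its difference was -0.37 (SE 0.28, limma adjusted p = 0.582), and its other probes gave -0.69 and -0.74. Trp73, which encodes the p53 relative p73, differed by -0.27 (SE 0.40) and was one of the genes whose sign differed between slides.

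The group of cell death and survival genes held 8 tested members and 0 passed. Pmaip1 encodes Noxa, a BH3-only protein that disarms the survival factors of mitochondria. It read 0.69, 0.29 and 0.11 on the knockout arrays, against 0.99, 0.87 and 0.86 on the wild-type arrays, so the groups were apart and the wild-type values close together. Its difference was -0.54 (SE 0.24, limma adjusted p = 0.494), with -0.30 on slide 1 and -0.66 on slide 2, and -0.56 (SE 0.33, limma adjusted p = 0.936) with the 2 wild-type arrays counted once. Bbc3, which encodes the BH3-only protein Puma, gave 2.04, 2.12 and 1.31 on the knockout arrays, against 1.55, 1.93 and 1.91 on the wild-type arrays. There the groups overlapped and the difference was 0.02 (SE 0.30). Bax, a pore former, had the smallest SE of all 29 genes: it differed by 0.09 (SE 0.21), with a 95% interval of -0.42 to 0.60.

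Phlda3, which blocks the survival kinase Akt at the membrane, read 4.85, 4.40 and 3.74 on the knockout arrays and 4.16, 3.69 and 3.82 on the wild-type arrays. Knockout array 3 lay inside the wild-type range, and the difference was 0.44 (SE 0.33, limma adjusted p = 0.584). Ei24, a protein of the endoplasmic reticulum with a part in autophagy, read 3.49, 2.98 and 2.61 on the knockout arrays, against 2.79, 2.51 and 2.66 on the wild-type arrays. It had the same order of knockout arrays as Phlda3 and a difference of 0.37 (SE 0.28, limma adjusted p = 0.586). Perp, a desmosome-linked membrane protein, had the largest SE of the 29 genes and read 2.16, -1.21 and 0.93 on the knockout arrays, against -0.78, 0.94 and 0.98 on the wild-type arrays. Both groups were wide, with knockout array 2 and wild type 1 low, and the difference was 0.25 (SE 0.90). Aen, an exonuclease that p53 induces during cell death, differed by 0.13 (SE 0.25), and its second probe by -0.14. Trp53inp1, a cofactor of p53 in the nucleus, differed by 0.10 (SE 0.32).

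Fas, the receptor through which Fas ligand starts cell death, read 0.38, 1.14 and 1.28 on the knockout arrays, against 1.18, -1.43 and -1.51 on the wild-type arrays. Wild type 1 lay among the knockout arrays, and the near-alike wild-type arrays 2 and 3 lay far below all others. The difference was 1.52 over all arrays (SE 0.74, limma adjusted p = 0.500), -0.80 on slide 1 and 2.68 on slide 2. On slide 2 alone Fas passed the test (limma adjusted p = 0.0307, within 0.0307 to 0.945 over its alternatives), where the only wild type were the 2 near-alike arrays, and 303 features passed in that fit. With these arrays counted once the difference was 1.08 (SE 0.79, limma adjusted p = 0.936). Tnfrsf10b, the mouse receptor of the death ligand Trail, differed by -0.09 (SE 0.40), at 1.03 within slide 1 and -0.65 within slide 2, and its 3 probes gave -0.09, -0.03 and 0.01. Eda2r read -8.23, -8.90 and -9.41 on the knockout arrays and -9.23, -9.30 and -8.39 on the wild-type arrays, all of them values at background, so no fold is given.

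Gdf15, a secreted stress cytokine of the TGF-beta family, had the largest difference of the 29 genes. It read -0.69, -3.33 and -3.90 on the knockout arrays, against -0.47, -0.99 and -1.30 on the wild-type arrays. Knockout array 1 lay inside the wild-type range and the other knockout arrays far below it. The log2 difference was -1.72 (SE 0.81, limma adjusted p = 0.497), a 3.29-fold lower signal, at -0.21 within slide 1 and -2.47 within slide 2. Without knockout array 1 it was -2.69, and its smallest limma adjusted p over all alternatives was 0.0518. The sestrins, which restrain the growth kinase mTORC1 and limit oxidative damage, stayed near 0: Sesn1 differed by 0.17 (SE 0.29) and Sesn2 by -0.16 (SE 0.28), both with 95% intervals inside 2-fold.

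DNA repair and nucleotide supply held 4 members and 0 passed. Polk, a polymerase that copies past damaged bases, read -2.53, -1.84 and -1.35 on the knockout arrays, against -1.61, -0.87 and -0.91 on the wild-type arrays. Knockout array 3 alone reached above wild type 1, and the difference was -0.77 (SE 0.38, limma adjusted p = 0.500), similar on slide 1 at -0.92 and on slide 2 at -0.70. Rrm2b, the p53-induced subunit of ribonucleotide reductase, differed by -0.94 (SE 0.72), with knockout array 1 at -5.53 and knockout array 3 at -2.88. The 2 damage-recognition factors of nucleotide excision repair stayed closer to 0, Xpc at -0.10 (SE 0.34) and Ddb2 at 0.26 (SE 0.23).

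**Figure D2:**
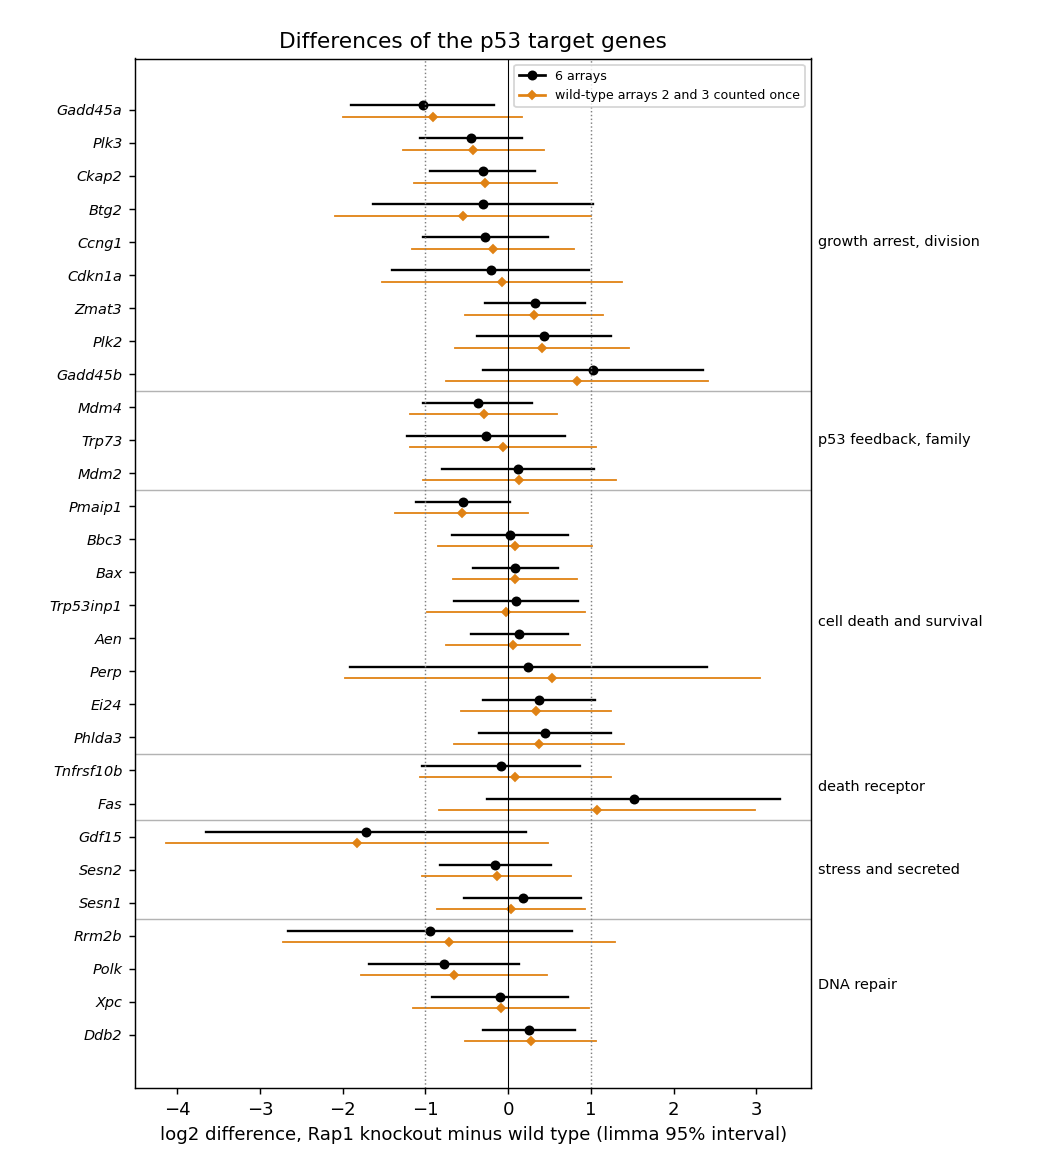
Log2 difference, Rap1 knockout minus wild type, of the 29 tested genes with limma 95% intervals, from all 6 arrays (black) and with wild-type arrays 2 and 3 counted once (orange); dotted lines mark 2-fold. The black interval of Gadd45a alone leaves out 0, and its orange interval, from -1.99 to 0.17, includes it.

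How large a difference could still be present varied among the genes. The 95% interval of limma lay inside 2-fold in both directions for 10 of 29, against 38.6% of all features: Zmat3, Ckap2, Ddb2, Sesn1, Sesn2, Aen, Bax, Trp53inp1, Xpc and Bbc3. With the 2 wild-type arrays counted once 4 of 29 intervals were that narrow, those of Sesn1, Aen, Bax and Trp53inp1. SE values ran from 0.21 for Bax to 0.90 for Perp, and for the other 19 genes a difference of 2-fold lies within the interval.

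The slides give 2 smaller comparisons of their own. For 11 of 29 genes (37.9%) the sign of the difference was opposite on the 2 slides, against 39.4% of all features. These were Fas, Ccng1, Trp73, Sesn1, Cdkn1a, Mdm2, Trp53inp1, Xpc, Perp, Tnfrsf10b and Bbc3. Cdkn1a, Mdm2, Tnfrsf10b and Perp were all higher in the knockout on slide 1, by 0.92 to 2.94, and lower on slide 2. Slide 1 holds 1 array of each group, so the slide cannot be told apart from these single arrays. With the slide as a block 0 of 29 genes passed and the smallest limma adjusted p was 0.135, for Gadd45a.

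**Figure D3:**
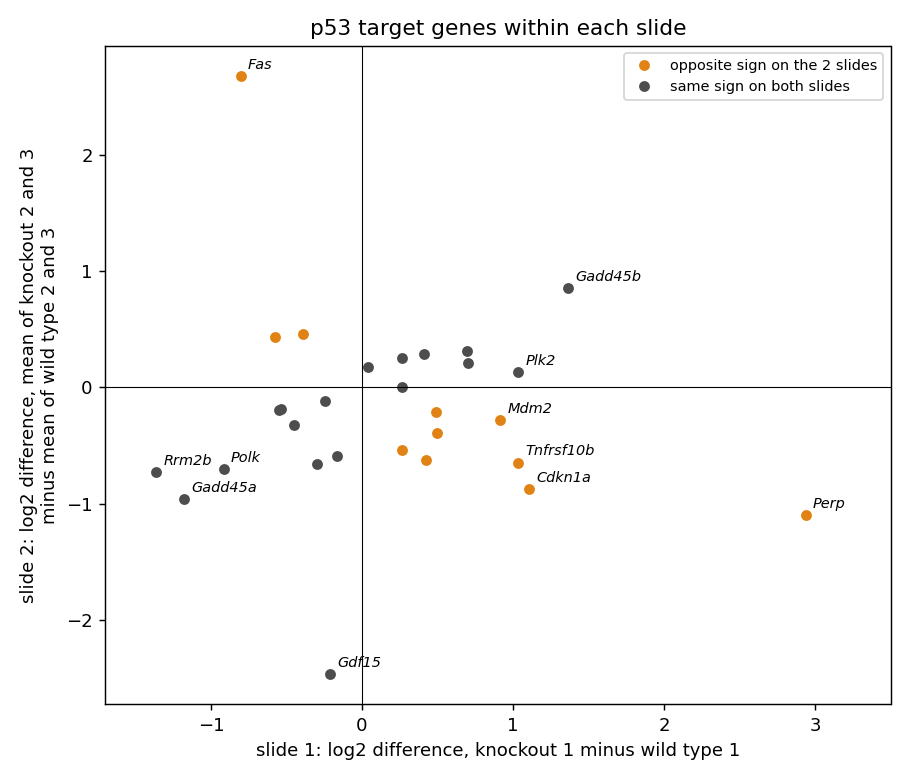
Log2 difference, Rap1 knockout minus wild type, of each tested gene on slide 1 (horizontal) and on slide 2 (vertical), with genes past 0.8 on either slide named. The 11 orange genes lie in the quadrants of opposite sign, among them Fas at -0.80 and 2.68 and Perp at 2.94 on slide 1, while Gadd45a at -1.18 and -0.96 lies low on both.

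Array by array, the list as a whole did not separate the groups. With each gene centred on its mean over the 6 arrays, the median of the 29 genes was 0.23, -0.02 and -0.18 on the knockout arrays and -0.03, 0.14 and 0.05 on the wild-type arrays, so the knockout arrays held both the highest and the lowest value. Knockout array 1 was the highest array for 10 of the 29 genes and knockout array 3 the lowest for 9. The 9 genes of arrest and division also had knockout array 1 highest and knockout array 3 lowest, with 0.31, -0.12 and -0.22 on the knockout arrays against 0.02, 0.22 and 0.23 on the wild-type arrays. The 4 repair genes had another order, with -0.47, -0.22 and 0.30 on the knockout arrays against -0.15, 0.40 and 0.31 on the wild-type arrays. Genes with a p53 decamer in a promoter window were not set apart either: 5 of 10 lay above 0, with a median of -0.06, and 5 of the 11 tested genes whose window held none, with a median of -0.16.

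The wider p53 pathway was read from 3 further lists, in which 0 genes passed the test in either direction. Of the regulators that sense damage or modify p53, 25 of 27 were measured, and no probe was matched to Usp7 and Atr. The median of the 25 was 0.03, with 14 above 0 and 11 below. After quantile normalisation the median was -0.01. Trp53 itself read 1.25, 1.10 and 1.08 on the knockout arrays and 0.70, 0.99 and 0.85 on the wild-type arrays. Every knockout array lay above the wild type, by 0.30 on average (SE 0.21, limma adjusted p = 0.566). With wild-type arrays 2 and 3 counted once Trp53 differed by 0.33 (SE 0.30, limma adjusted p = 0.936). Groups did not overlap for 4 of 25 regulators (16%), against 17.2% of all features. Of these, 3 were higher in the knockout (11.3% of all features) and 1 lower (5.88%). Trp63, which encodes the p53 relative p63, had the smallest p, with -3.20, -3.58 and -3.89 on the knockout arrays against -2.32, -1.67 and -1.74 on the wild-type arrays. The groups of Trp63 did not overlap, and the difference was -1.65 (SE 0.30, limma adjusted p = 0.235), or -1.54 (SE 0.38, limma adjusted p = 0.936) with the 2 wild-type arrays counted once. It was -0.88 on slide 1 and -2.03 on slide 2, where it passed (limma adjusted p = 0.0452, within 0.0452 to 0.945 over its alternatives) against the near-alike wild-type arrays alone. In that fit 303 features passed, and the groups did not overlap for 57.8% of all features. Prkdc, the catalytic subunit of the DNA-dependent protein kinase, differed by -0.76 (SE 0.32), and Ppm1d, the phosphatase Wip1 that p53 induces and that silences it again, by 0.62 (SE 0.28).

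Other p53 targets, 37 of 42 measured, had a median of 0.18 with 21 above 0 and 16 below. The median was -0.01 without knockout array 1 and 0.11 over the 35 genes above background on all arrays. No probe was matched to Lif, Vcan and Cgref1, and Steap3 and Casp1 were not well above background throughout either group. Trp53i11, a p53-induced gene, had the smallest p, with -2.09, -3.41 and -4.03 on the knockout arrays and -4.70, -6.16 and -6.76 on the wild-type arrays. No wild-type array reached a knockout array. Only 2 of 3 wild-type arrays were above background and Trp53i11 was kept through the knockout group alone, so its difference rests in part on a value at background. The difference was 2.70 (SE 0.68, limma adjusted p = 0.381), at 2.62 within slide 1 and 2.74 within slide 2, and 2.40 (SE 0.75, limma adjusted p = 0.936) with the wild-type arrays counted once. Hexim1, an inhibitor of the elongation kinase P-TEFb, read 4.35, 4.16 and 3.99 on the knockout arrays. Its wild-type arrays read 3.53, 3.08 and 3.12, also without overlap. Hexim1 differed by 0.92 (SE 0.24, limma adjusted p = 0.392), or 0.85 (SE 0.33, limma adjusted p = 0.936) with wild-type arrays 2 and 3 counted once. Trp53i11 and Hexim1 were the only 2 of 37 (5.41%) whose groups did not overlap, against 17.2% of all features. Both were higher in the knockout, a direction held by 11.3% of all features. Dgka, a diacylglycerol kinase, differed by 0.64 (SE 0.29).

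Genes that p21 and the DREAM complex hold down when p53 is active, 36 of 36 measured, lay mostly above 0. Of these, 27 were above 0 and 9 below, while 55.4% of all features and 7234 of the 11874 with a gene symbol lay above 0. The list median was 0.35, against 0.07 over all features and 0.14 over the 11874 features with a gene symbol. Normexp correction before quantile normalisation put the list median at 0.20, and counting wild-type arrays 2 and 3 once put it at 0.34. It was 0.22 without knockout array 2 and 0.48 without knockout array 3. The groups were apart with the knockout higher for 11 of 36 (30.6%), against 11.3% of all features, and with the knockout lower for 0. Among the 11874 features with a gene symbol, 1612 were apart with the knockout higher. Whether the count of 11 depends on single arrays was not tested. The 3 of smallest p were Cdc6, a loader of the replicative helicase, at 0.64 (SE 0.20), the S-phase cyclin Ccne1 at 0.70 (SE 0.25) and the mitotic survivin gene Birc5 at 0.65 (SE 0.25), with limma adjusted p-values of 0.472, 0.475 and 0.486. With the 2 wild-type arrays counted once they differed by 0.64 (SE 0.29), 0.60 (SE 0.33) and 0.65 (SE 0.34), each at a limma adjusted p of 0.936.

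**Figure D4:**
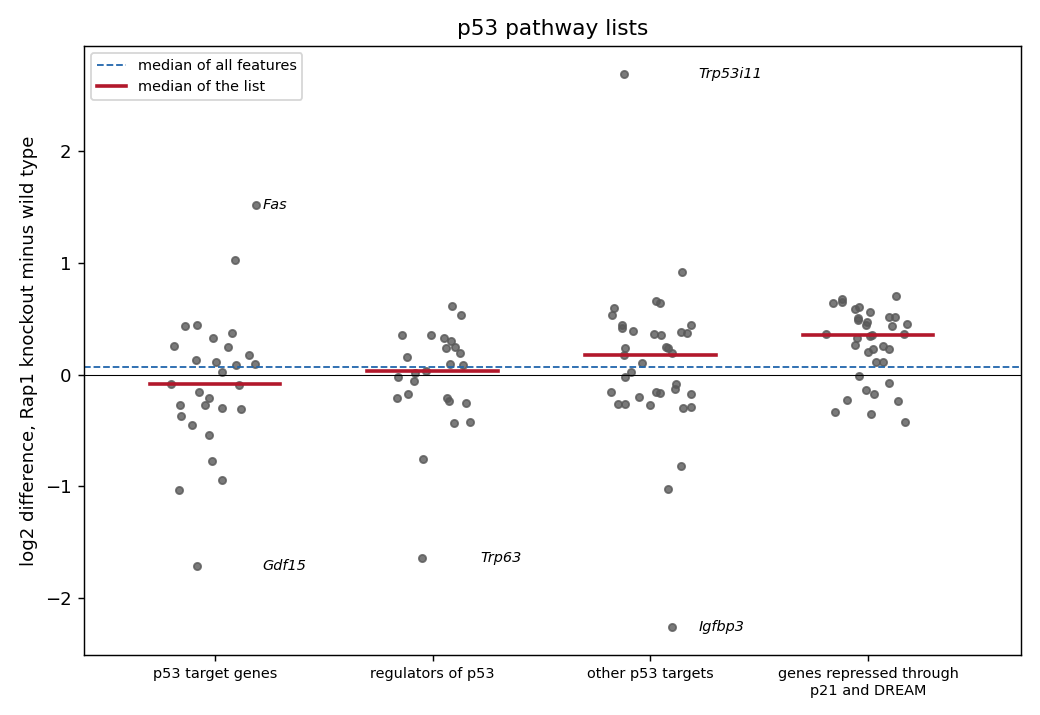
Log2 difference, Rap1 knockout minus wild type, of each measured gene in the p53 target list and in 3 further lists of the pathway; red bars are list medians and the dashed line is the median of all features, 0.07. Most genes lie within 1 of 0, Fas and Gdf15 are the farthest of the p53 targets, and the median of the genes repressed through p21 and DREAM is 0.35.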

How the data were processed

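Intensity values per spot were read from the deposited one-colour scanner output, which names Agilent Feature Extraction 10.5.1.1 in the file headers and gives a background-corrected processed signal, median signals and flags. A deposited table of log2 values was used as an alternative. The submitters' processing notes name limma without its steps; that table matched normexp and quantile values computed from the scanner output, its knockout columns in another order within their group (column medians 6.86 to 6.87).

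Control spots (1639 of 45018) and outlier spots were left out, and none was saturated. Repeated spots gave 1 mean per probe of log2 processed signal minus the array's 75th percentile. Probes had to be well above background throughout 1 group or both (25513 of 41174 were). Names came from RefSeq accessions (23374 probes matched, 17800 not, GRCm38.p6), and a feature was its brightest kept probe (19652). Files name build mm8, so no coordinates of genes were used. Limma 3.58.1 in R 4.3.3 compared the groups without a block, 2-sided, with Benjamini-Hochberg adjustment over all features.

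Arrays of the same number deviated together at correlations of 0.01, 0.05 and -0.08, so the numbers do not pair them. Array values are given for the 10 genes of smallest p, Cdkn1a, Mdm2, Ckap2 and any gene not tested, and in other lists the 3 of smallest p are named; Trp53, and all further array values or names, were chosen after their values were seen. Members and lists were chosen with earlier results of these data known. The fit was tested on simulated data.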

Additional observations from a re-analysis of the deposited data

How the results depend on the processing

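No p53 target passed the limma threshold under 16 of the 17 alternatives with a test; on slide 2 alone 1 passed, Fas at 2.68. The number of all features past it was 2 and became 0 with probes above background on all arrays, with the replicate block, with the slide block and with wild-type arrays 2 and 3 averaged, 4 with the mean of a gene's probes and 303 on slide 2 alone; without single arrays it ran from 0 to 64, with 64 when wild-type array 1 was left out. Those fits, in this order, had 1780, 2352, 3482, 690, 2032, 4352 and 3542 features of unadjusted p under 0.05, and the counts of 0 without knockout array 1, wild-type array 2 or wild-type array 3 stood beside 1619, 699 and 696. The replicate block changed no call of a p53 target. The groups were apart for 1 target with median scaling (18% of all features) and 17 on slide 2 (58.6%, against 57.8% of all features), and for 3 to 13 without single arrays (18.7% to 45.6% of all features). Slide 1 alone gave a median of 0.26 for the targets and slide 2 alone -0.21, and it ran from -0.13 to 0.13 without single arrays, the highest without knockout array 3. Median scaling put it at 0.02 and that of all features at 0.17. Without the filter it was -0.03 and that of all features -0.08, so the targets then lay above all features. Fas turned to -0.80 on slide 1. Cdkn1a turned to 1.11 on slide 1 and 0.29 without knockout array 3, and ran from -0.60 to 0.29 without single arrays. Mdm2 turned to -0.28 on slide 2 and -0.24 without knockout array 1, and ran from -0.24 to 0.49 without single arrays. Bbc3 changed sign in 7 alternatives (-0.21 to 0.49) and Perp in 3 (-1.10 to 2.94). The other 10 tested targets with a value given for every array kept their direction under all 18 alternatives. The cause of these changes was not tested. Signal over background limits Eda2r.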
